A study of Homo sapiens with 10 samples.

Results

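Gap junctions are arrays of channels that join the cytoplasm of neighbouring cells, and the genes described here encode their subunits and a related channel protein. The genes are GJA1, GJB2, GJB5, GJB6 and GJC1, which encode connexins, and PANX1, which encodes a pannexin. They were chosen by name, and each of the 6 had its own entry among the 23170 genes of the deposited tables. The measurement was RNA-seq of 10 samples from 4 lines made out of PC3 cells, which come from a human prostate cancer and grow without androgen. All lines descend from PC3-Epi (2 samples), a luciferase-positive population that was selected for epithelial colonies. PC3-EMT14 (3 samples) is a mesenchymal population isolated after PC3-Epi was grown with macrophages made from blood monocytes, so both lines share the luciferase vector. Transduction of PC3-EMT14 with a lentivirus for the transcription factor OVOL1 gave PC3-EMT14-OVOL1 (3 samples), hereafter the OVOL1 line. A virus for OVOL2 gave PC3-EMT14-OVOL2 (2 samples), hereafter the OVOL2 line. Each line is 1 selected population, and no PC3-EMT14 line carrying an empty virus was compared here. The comparisons ask how the transcripts of PC3-EMT14 differ from those of its epithelial parent and how they change when an OVOL factor is overexpressed.

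Connexins assemble in sixes into a hemichannel, or connexon, and connexons of neighbouring cells dock to form a channel that passes ions and small metabolites. The alpha, beta and gamma subgroups differ in sequence, and subunits from different subgroups often do not mix in 1 channel, so the set of connexins that a cell makes shapes which neighbours it can couple to. GJA1 (Cx43) is the most widely made connexin and is found in fibroblasts, muscle and basal epithelial cells. The beta connexins GJB2 (Cx26), GJB5 and GJB6 (Cx30) are known from skin, the inner ear and other epithelia, and GJC1 (Cx45) from heart and smooth muscle. In the prostate, GJA1 is known from basal cells and connexins of the beta subgroup from luminal cells. Pannexins resemble connexins in shape but form channels in the membrane of single cells, and PANX1 is best known as a route by which ATP leaves the cell.

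The 5 connexin genes have their whole coding sequence in 1 exon, while that of PANX1 is spread over 5 exons. Gene coordinates are on hg19, as deposited. GJA1 (XLOC_017528) lies at chr6:121756745-121770873 on the plus strand and GJB5 (XLOC_000264) at chr1:35220721-35224112 on the plus strand. GJB2 (XLOC_005725, chr13:20761604-20767114) and GJB6 (XLOC_005726, chr13:20796101-20806534) lie on the minus strand with 28986 bases between them. GJC1 (XLOC_009291) lies at chr17:42875816-42908179 on the minus strand and PANX1 (XLOC_003589) at chr11:93862094-93915137 on the plus strand.

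The promoters of GJA1 and GJB2 are printed because these genes are the most abundant alpha and beta connexins among the genes chosen, one with a lower level in the 3 epithelial or OVOL lines and the other within 2-fold in every comparison. Each run holds the 250 bases before the RefSeq start of the gene, 5′ to 3′ on the strand of the gene. The sequences are from RefSeq on GRCh38.p14, and each matched hg19 (GRCh37) exactly once, at chr6:121756542-121756791 (plus strand) and chr13:20767078-20767327 (minus strand). Capitals mark matches to 5 motifs searched on both strands: the core CCGTTA bound by OVOL factors, the E-box CAGGTG bound by ZEB factors, the GC box GGGCGG, the AP-1 site TGACTCA and the TATA box TATAAA.
GJA1: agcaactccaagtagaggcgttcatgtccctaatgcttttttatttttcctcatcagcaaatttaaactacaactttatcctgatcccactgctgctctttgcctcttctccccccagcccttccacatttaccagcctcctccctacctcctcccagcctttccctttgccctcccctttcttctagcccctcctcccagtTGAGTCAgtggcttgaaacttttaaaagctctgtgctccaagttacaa
GJB2: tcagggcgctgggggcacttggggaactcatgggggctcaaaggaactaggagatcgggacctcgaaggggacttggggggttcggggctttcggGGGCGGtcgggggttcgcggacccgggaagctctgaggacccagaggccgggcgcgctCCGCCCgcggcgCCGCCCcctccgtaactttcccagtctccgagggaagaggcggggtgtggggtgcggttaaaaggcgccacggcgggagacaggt

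The GJA1 window held 1 AP-1 site, from 48 to 42 bases before the RefSeq start, which 4.20% of 35093 windows of this length also held. Its GC content was 48% and it held 1 CpG. The GJB2 window was richer in both, with a GC content of 70%, 25 CpGs and 3 GC boxes, a motif present in 42.6% of all windows. PANX1 (62% GC, 19 CpGs) had 1 GC box, and GJB6 (50.8% GC, 1 CpG) had none of the 5 motifs. The OVOL core, the ZEB E-box and the TATA box occurred in none of these 4 windows, against 2.45%, 17.5% and 10.7% of all windows. The OVOL core was searched as CCGTTA alone, while the OVOL2 consensus given by the authors allows other letters at some of these positions. No marked match overlaps another. RefSeq and deposited starts differ: the deposited starts of GJA1 and GJB2 lie inside their windows, that of GJA1 within the AP-1 match, and the GJB6 window lies wholly within the deposited gene. A match describes letters in a window and does not show that a factor binds there. GJB5 and GJC1 were not matched to a promoter.

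Levels are given in FPKM, fragment counts scaled for transcript length and for library size, which allows genes of different length to be compared. The tables hold 1 value per line and comparison, pooled by the authors from the 2 or 3 samples of the line, and values of single samples were not used here. No SD, test or p-value is given, and the depth of the samples is unknown. A ratio is taken only between the lines of 1 table, without a pseudocount, and where only 1 value follows the word against, it is that of PC3-EMT14. A gene is called higher or lower where it differed by at least 2-fold and reached 1 FPKM in the higher line. The 3 comparisons against PC3-EMT14 share the PC3-EMT14 samples. Where a line appears in several tables, its values differ by a nearly constant factor (medians of 0.989 to 1.03), which reflects scaling and says nothing of the spread between samples.

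The labels were checked on the overexpressed genes. OVOL1 stood at 11.3 FPKM in the OVOL1 line against 0.0238 FPKM in PC3-EMT14, beside 4.25 FPKM in PC3-Epi. OVOL2 stood at 831 FPKM in the OVOL2 line against 0.370 FPKM in PC3-EMT14, beside 9.91 FPKM in PC3-Epi. Of 7 prostate markers, KLK2 and KLK3 were listed at 0 in every line. The summed level of 9 epithelial markers was 1146 to 1184 FPKM in PC3-EMT14, 1317 FPKM in the OVOL1 line, 1902 FPKM in the OVOL2 line and 2076 FPKM in PC3-Epi. That of 6 mesenchymal markers went the other way, with 332 to 343 FPKM in PC3-EMT14, 230 FPKM in the OVOL1 line, 112 FPKM in the OVOL2 line and 93.3 FPKM in PC3-Epi. Most of this sum in PC3-EMT14 was VIM (271 FPKM beside PC3-Epi), and single markers varied. Of the 6, 0 were called lower in the OVOL1 line, 4 in the OVOL2 line and 2 (VIM, ZEB1) in PC3-Epi. The shares over all genes were 1.54%, 2.93% and 8.34%. FN1 was 33.8 FPKM in PC3-Epi against 36.8 FPKM, and SPARC 4.92 FPKM in the OVOL1 line against 4.23 FPKM. The 7 prostate markers summed to 72.0 FPKM in the OVOL1 line against 93.0 FPKM in PC3-EMT14, to 36.0 FPKM in the OVOL2 line and to 28.8 FPKM in PC3-Epi. Of 11 macrophage markers, CD68 alone reached 1 FPKM in any line, and the other 10, including CD14 and PTPRC, were below it in every line. The summed macrophage level was 13.6 FPKM in PC3-Epi against 52.8 to 54.5 FPKM in PC3-EMT14, and 51.6 and 58.3 FPKM in the OVOL1 and OVOL2 lines. In bulk samples, fewer cells that make a transcript and less of it per cell cannot be told apart.

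GJA1 was the most abundant connexin of PC3-EMT14, and its level was lower in each of the other lines. It was 18.0 FPKM in the OVOL1 line against 30.3 FPKM in PC3-EMT14, a 1.69-fold difference that is below the 2-fold threshold. In the next table it was 11.6 FPKM in the OVOL2 line against 30.0 FPKM in PC3-EMT14, 2.59-fold lower (log2 ratio -1.37). The epithelial parent had the lowest value, 8.81 FPKM in PC3-Epi against 30.9 FPKM in PC3-EMT14, 3.51-fold lower (log2 ratio -1.81). From high to low, the order was thus PC3-EMT14, the OVOL1 line, the OVOL2 line and PC3-Epi. Neighbours in this order differed by less than 2-fold where a table compares them. In the direct table the OVOL lines stood at 17.8 and 11.6 FPKM, a log2 ratio of -0.62 for OVOL2 over OVOL1. The order of GJA1 is the reverse of that of the summed epithelial markers given above, but not of each marker. In PC3-Epi 7 of these 9 were called higher and 2 were within 2-fold, where 7.37% of all genes were higher. KRT19 was 608 FPKM in the OVOL1 line against 656 FPKM, and CLDN4 was 212 FPKM in PC3-Epi against 271 FPKM. KRT19 and CLDN4 together made up most of the summed epithelial level in PC3-EMT14. The part of the mix of cell states in the order of GJA1 was not tested. GJA1 has a processed pseudogene, and reads shared with it cannot be told apart here.

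GJB5, a beta connexin of stratified epithelia and placenta, was the gene chosen here that was called higher in all 3 comparisons with PC3-EMT14. Its level was 2.89 FPKM in the OVOL1 line against 0.782 FPKM in PC3-EMT14, 3.69-fold higher (log2 ratio 1.88). It was 5.48 FPKM in the OVOL2 line against 0.774 FPKM in PC3-EMT14, 7.09-fold higher (log2 ratio 2.83). The epithelial parent lay between the OVOL lines, at 4.82 FPKM in PC3-Epi against 0.799 FPKM in PC3-EMT14, 6.04-fold higher (log2 ratio 2.59). PC3-EMT14 was therefore the lowest line and lay below 1 FPKM, so GJB5 was counted through the lines in which it was high. In the direct table GJB5 was 2.85 FPKM in the OVOL1 line and 5.48 FPKM in the OVOL2 line, 1.92-fold higher and below the threshold. Even at its highest, GJB5 remained below the lowest level of GJA1, GJB2 and PANX1 in any line.

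**Figure D1:**
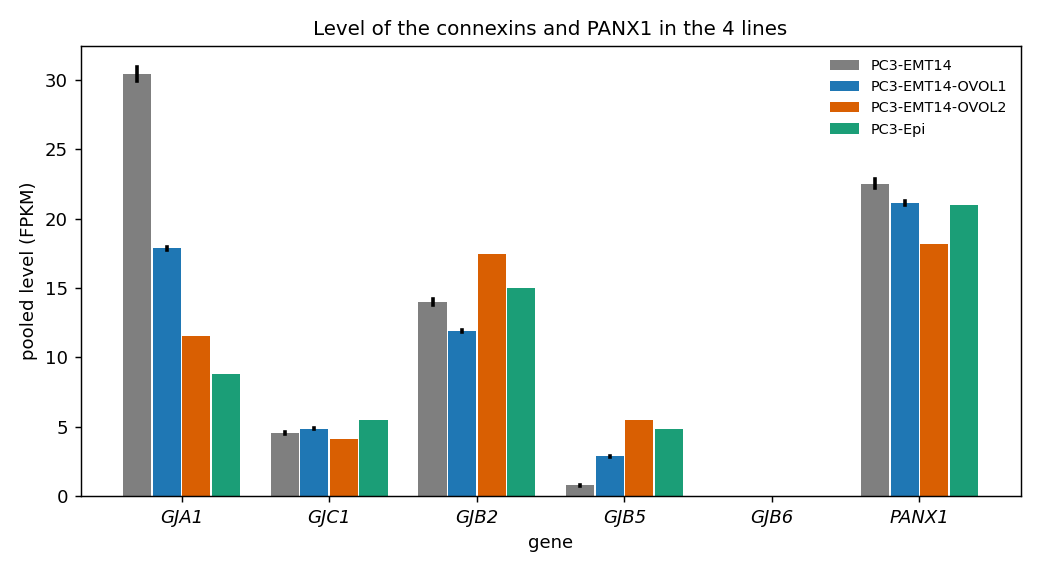
Pooled level in FPKM (y axis, linear from 0) of the 5 connexin genes and PANX1 (x axis) in PC3-EMT14, the OVOL1 line, the OVOL2 line and PC3-Epi; bars are the midpoint of a line's values over the tables that hold it, and black lines run from the lowest to the highest of these, which is a difference of scaling and not of samples. GJA1 descends from about 30 FPKM (PC3-EMT14) to 8.81 FPKM in PC3-Epi, GJB5 goes from under 1 FPKM to 5.48 FPKM in the OVOL2 line, and GJB6 is at 0.

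GJB2, the other beta connexin with transcript, stayed within 2-fold in every comparison. It stood at 12.0 FPKM in the OVOL1 line against 14.0 FPKM in PC3-EMT14 (log2 ratio -0.22). It was 17.5 FPKM in the OVOL2 line against 13.8 FPKM in PC3-EMT14 (log2 ratio 0.34), and 15.0 FPKM in PC3-Epi against 14.2 FPKM in PC3-EMT14 (log2 ratio 0.08). The lowest line was the OVOL1 line and the highest the OVOL2 line, and in the direct table these were at 11.8 and 17.5 FPKM, 1.48-fold apart. GJB6, its neighbour on chromosome 13 and, like GJB2, known for inherited deafness, was listed at 0 in every line, and so were its 4 isoforms. No statement on its absence follows, since the depth is unknown.

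GJC1, the gamma connexin, had a low and even level. It was 4.91 FPKM in the OVOL1 line against 4.56 FPKM in PC3-EMT14, 4.09 FPKM in the OVOL2 line against 4.51 FPKM, and 5.47 FPKM in PC3-Epi against 4.66 FPKM. Its log2 ratios ran from -0.25, in the direct table of the OVOL lines, to 0.23 for PC3-Epi. GJC1 was the one gene of the 6 with 2 isoforms above 0 FPKM. The minor isoform made 5.48% of the PC3-EMT14 level and 6.30% of that of the OVOL1 line, was listed at 0 in the OVOL2 line, and made 8.09% in PC3-Epi. These shares rest on 0.443 FPKM or less. GJA1, GJB2, GJB5 and PANX1 have 1 isoform each in the tables, so isoform values repeat those of the gene.

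PANX1, which forms channels for ATP release, was second to GJA1 among the 6 genes in PC3-EMT14. Its values were 21.3 FPKM in the OVOL1 line against 22.4 FPKM in PC3-EMT14 (log2 ratio -0.08). They were 18.2 FPKM in the OVOL2 line against 22.2 FPKM (log2 ratio -0.29) and 21.0 FPKM in PC3-Epi against 22.9 FPKM (log2 ratio -0.12). PC3-EMT14 had the highest value in each table that holds it, by less than 2-fold. PANX1 was the most abundant of the 6 genes in the 2 OVOL lines and in PC3-Epi.

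The counts of called genes were small and are read against all genes. In the OVOL1 line, GJB5 was higher and none was lower, where 2.43% of 12197 genes that reached 1 FPKM were higher and 1.54% lower. In the OVOL2 line, GJB5 was higher and GJA1 lower, where 4.42% of 12307 genes were higher and 2.93% lower. In PC3-Epi, again GJB5 was higher and GJA1 lower, where 7.37% of 12441 genes were higher and 8.34% lower. Between the OVOL lines none of the 6 was called, where 1.9% of 12188 genes were higher in the OVOL2 line and 1.17% lower. In each comparison 5 of the 6 genes reached 1 FPKM, with GJB6 left out. With so few genes, a count of 1 or 2 called does not set them apart from the other genes. The median absolute log2 ratio of all genes tested was 0.16 for the OVOL1 line, 0.21 for the OVOL2 line and 0.36 for PC3-Epi, each against PC3-EMT14, and 0.15 between the OVOL lines. GJA1 and GJB5 lay beyond it in all 4 tables. GJB2 lay beyond it in all but the table of PC3-Epi. GJC1 lay beyond it between the OVOL lines alone, and PANX1 there and in the OVOL2 line against PC3-EMT14.

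**Figure D2:**
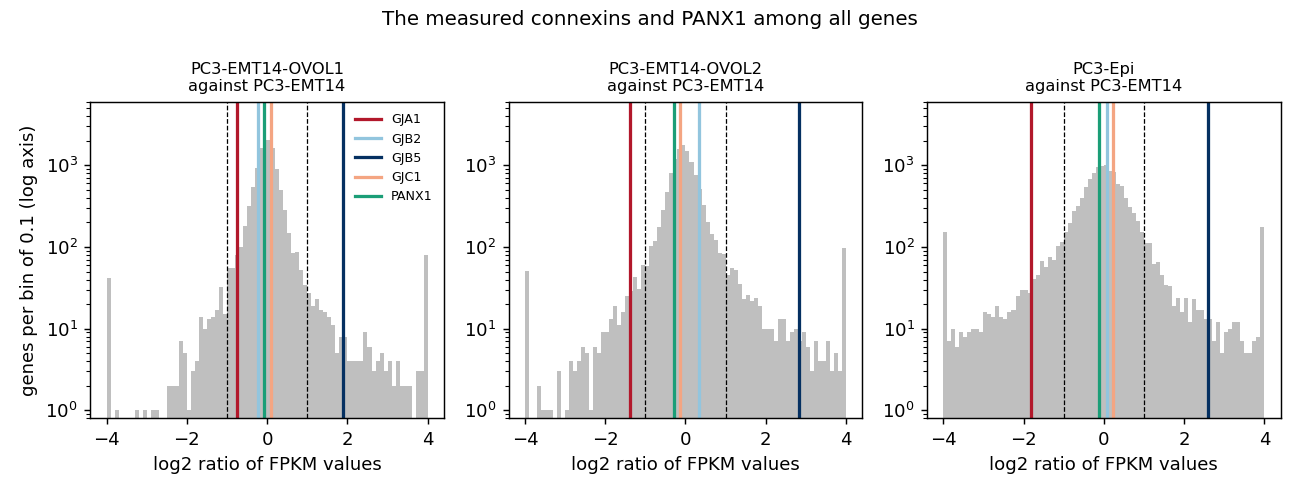
Number of genes per bin of 0.1 (y axis, log scale) by log2 ratio of FPKM values (x axis) for each line against PC3-EMT14, over genes that reached 1 FPKM in the higher line; ratios beyond 4, also those against 0, are stacked in the outermost bins, dashed lines mark 2-fold, and coloured lines mark single genes. GJB5 lies to the right of the 2-fold mark in all 3 panels, GJA1 lies left of it for the OVOL2 line and PC3-Epi, and GJB2, GJC1 and PANX1 lie near the centre.

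The wider family was described over a list of 22 connexin and pannexin symbols, of which 21 had an entry and GJE1 did not. The list does not hold every member of the family. Of these 21, 9 reached 1 FPKM in each comparison with PC3-EMT14 and 8 in the direct table. The counts and medians include the entry that GJA9 shares with MYCBP. In the OVOL1 line, 1 was higher (GJB5) and 2 lower (GJA3, GJA5), where 2.43% of all genes were higher and 1.54% lower. In the OVOL2 line, 1 was higher (GJB5) and 3 lower (GJA1, GJA3, GJA5), where 4.42% of all genes were higher and 2.93% lower. In PC3-Epi, 1 was higher (GJB5) and 3 lower (GJA1, GJA3, PANX2), where 7.37% of all genes were higher and 8.34% lower. None was called between the OVOL lines. The median log2 ratio of those that reached 1 FPKM was -0.08, -0.14 and -0.12 in the 3 comparisons with PC3-EMT14, beside -0.002, -0.04 and -0.014 for all genes.

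GJA3, a lens connexin that lies 26420 bases from GJB2, was 1.04 FPKM in the OVOL1 line against 2.43 FPKM in PC3-EMT14. It was 0.592 FPKM in the OVOL2 line against 2.41 FPKM and 0.0570 FPKM in PC3-Epi against 2.48 FPKM. Like GJA1, it was highest in PC3-EMT14 and lowest in PC3-Epi. GJA5 (Cx40), a connexin of atrium and arteries, had 1.02 to 1.05 FPKM in PC3-EMT14, just above the limit for a call. It was 0.252 FPKM in the OVOL1 line, 0.277 FPKM in the OVOL2 line and 0.933 FPKM in PC3-Epi. PANX2 was 0.449 FPKM in PC3-Epi against 8.49 FPKM in PC3-EMT14, with 8.25 and 7.69 FPKM in the OVOL1 and OVOL2 lines. The entry that holds GJA9 also holds MYCBP, so its 22.0 to 27.0 FPKM cannot be assigned to the connexin.

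**Figure D3:**
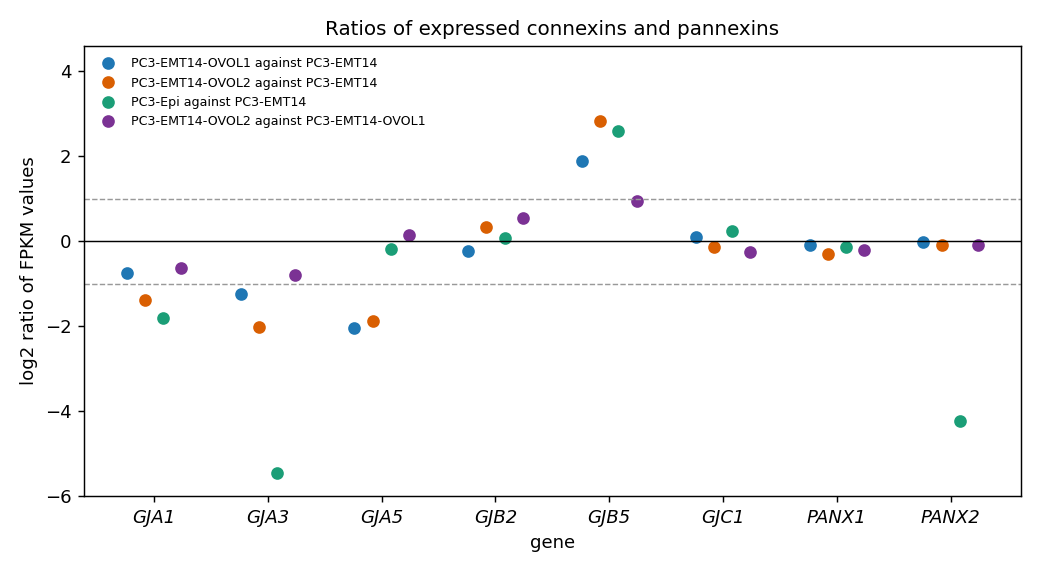
Log2 ratio of FPKM values (y axis) for 8 connexins and pannexins that reached 1 FPKM (x axis), 1 point per gene and comparison, with dashed lines at 2-fold; GJA5 between the OVOL lines is drawn although both values lie below 1 FPKM. GJB5 lies above the upper line in the 3 comparisons with PC3-EMT14, GJA3 lies below the lower line in the same 3, and PANX2 does so in PC3-Epi alone. The entry that GJA9 shares with MYCBP is not drawn.

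Of the 3 pannexins, PANX1 made 72.8% of the summed level in PC3-EMT14, 71.8% and 70.0% in the OVOL lines, and 97.8% in PC3-Epi, where PANX2 was low.

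Connexins reach the membrane and are removed from it with the help of other proteins. A list of 27 such genes held 10 for scaffolding and assembly, 9 kinases that phosphorylate connexins and 8 for turnover, and all 27 reached 1 FPKM. CDH1 and CDH2 are also among the epithelial and mesenchymal markers. Called higher in all 3 comparisons with PC3-EMT14 were CDH1, the E-cadherin of adherens junctions, and TJP3, a tight junction scaffold. CDH1 was 16.2 FPKM in the OVOL1 line against 0.981 FPKM in PC3-EMT14, and reached 39.2 FPKM in the OVOL2 line and 50.6 FPKM in PC3-Epi. TJP3 was 3.84 FPKM in the OVOL1 line against 1.01 FPKM in PC3-EMT14, with 5.32 FPKM in the OVOL2 line and 4.89 FPKM in PC3-Epi. The OVOL lines had no other call on the list, so 2 of 27 were higher and 0 lower in each, where 2.43% of all genes were higher and 1.54% lower for the OVOL1 line and 4.42% and 2.93% for the OVOL2 line. TJP1, the scaffold ZO-1 that binds the tail of GJA1, was within 2-fold, at 13.8 FPKM in the OVOL1 line against 13.0 FPKM, 18.3 FPKM in the OVOL2 line against 12.9 FPKM and 15.7 FPKM in PC3-Epi against 13.3 FPKM.

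In PC3-Epi, 4 of the 27 genes were higher and 1 lower, where 7.37% of all genes were higher and 8.34% lower. Besides CDH1 and TJP3, the caveolae protein CAV1 was 173 FPKM in PC3-Epi against 78.6 FPKM in PC3-EMT14, and the mitotic kinase CDK1 was 258 FPKM against 123 FPKM. NOV (CCN3), a secreted protein that also binds GJA1, was lower, at 4.91 FPKM against 11.6 FPKM. None of the 8 turnover genes, such as the ubiquitin ligase NEDD4, was called in any of the 4 comparisons. The medians over the list were -0.07, -0.08 and -0.14 in log2 ratio for the OVOL1 line, the OVOL2 line and PC3-Epi, beside -0.002, -0.04 and -0.014 for all genes. Between the OVOL lines CDH1 alone was called, at 16.0 FPKM in the OVOL1 line and 39.2 FPKM in the OVOL2 line.

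ATP that leaves through PANX1 or connexin hemichannels acts on P2X and P2Y receptors, is cut to AMP by enzymes of the ENTPD family and to adenosine by NT5E (CD73), and adenosine acts on its own receptors. Of 17 genes listed for these steps and for other large-pore channels, 14 reached 1 FPKM in each OVOL comparison with PC3-EMT14 and 15 in that of PC3-Epi. The counts and medians include P2RY11, whose entry also holds PPAN, so its level cannot be assigned to the receptor. In the OVOL1 line, ENTPD2 was higher and ENTPD3 lower, beside shares of 2.43% higher and 1.54% lower over all genes. In the OVOL2 line ENTPD2 alone was called, as higher, beside 4.42% higher and 2.93% lower. In PC3-Epi 3 were higher and 3 lower, beside 7.37% higher and 8.34% lower. The medians were 0.16, 0.27 and 0.15 in log2 ratio, beside -0.002, -0.04 and -0.014 for all genes. ENTPD2 was 1.56 FPKM in the OVOL1 line against 0.300 FPKM in PC3-EMT14, and stood at 2.63 FPKM in the OVOL2 line and 2.76 FPKM in PC3-Epi. It too was counted through the lines in which it was high.

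ENTPD3 was 3.41 FPKM in the OVOL1 line against 7.42 FPKM in PC3-EMT14, while PC3-Epi had 3.02 FPKM against 7.58 FPKM. NT5E was 7.28 FPKM in PC3-Epi against 29.5 FPKM in PC3-EMT14, 4.05-fold lower, and 14.5 FPKM in the OVOL2 line against 28.6 FPKM, 1.98-fold apart and not called. The ADP receptor P2RY1 was 0.165 FPKM in PC3-Epi against 3.67 FPKM in PC3-EMT14. The ATP-gated channel P2RX5 was 11.1 FPKM in PC3-Epi against 4.75 FPKM, and the adenosine receptor ADORA1 was 2.43 FPKM against 0.0486 FPKM. ADORA1 reached 1 FPKM in PC3-Epi alone, so it was counted through the line in which it was high. The volume channel subunit LRRC8A was within 2-fold throughout.

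The genes whose pattern was most like that of each gene were found from 3 ratios to PC3-EMT14, on the scale of log2(FPKM + 0.1), over 12634 genes. Likeness was the root mean square difference of the 3 ratios, so a smaller value is a closer pattern. Nearest to GJA1 were FAM102B (0.0058), ST3GAL1 (0.130) and BCL7A (0.131). Among those nearest to GJB5 were MYO5B (0.177) and CD164L2 (0.210). FAM50B (0.0447) was nearest to GJB2, LOC388796 (0.0132) to GJC1 and PRKACA (0.0101), a kinase also on the list of partners, to PANX1. With 3 ratios that share a control, such nearness is a description only.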

How the data were processed

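RNA of 10 samples from 4 PC3 lines was sequenced as paired-end reads. The authors aligned reads to the hg19 transcriptome (TopHat) and compared lines in pairs (Cuffdiff), with upper-quartile normalization, normalization to compatible hits, and correction for multiply mapped reads and sequence bias. The deposited FPKM values are thus pooled, 1 per line and comparison, in 4 gene tables of 23170 entries and 4 isoform tables of 37557. The deposited fold changes, test statistics, p-values, q-values and calls hold the authors' own comparisons and were not used. Columns of values per sample left unused number 0.

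Ratios were computed within tables with pandas 2.3.3, numpy 2.4.6 and Python 3.11.15, and drawn with matplotlib 3.10.9. A gene was called at a ratio of 2 or more, or 0.5 or less, with at least 1 FPKM in the higher line. No fold was computed against 0. The procedure was tested on simulated data. No test over samples could be made from pooled values. Genes were named where they are among the 6 chosen, were called within a list, or are neighbours in pattern or position; further list genes were named after their values were seen. The 6 genes and all lists were chosen with earlier results of these data known, and some genes that would belong in the lists or among the neighbours in pattern are not reported here. Promoters were taken from RefSeq for the 4 of 6 genes matched and placed on GRCh37 by exact match, and exons from GENCODE on GRCh37.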

Additional observations from a re-analysis of the deposited data

How the results depend on the processing

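The limits are those of pooled values. Leaving out a replicate was not possible, because each line has 1 pooled value per table, and no depth is known. No paired analysis was possible because the columns carry no replicate and no result comes from a test. Ratios of low genes, GJB5, GJA3, GJA5 and ENTPD2 among them, rest on values near 1 FPKM.

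Counts of genes called were recomputed under 10 alternatives for the 6 chosen genes and the lists of the family, the partners and the ATP genes. No ratio of the 6 genes changed direction under any of them. Of 160 counts, 125 stayed within 1.5 times the reported count. Centring on the median, the sum of isoforms, a pseudocount of 0.1 FPKM and use of entries with status OK moved none of the counts. For the 6 genes, a floor of 5 FPKM left 0 called in the OVOL1 line and 1 in PC3-Epi. A fold of 1.5 gave 2 in the OVOL1 line, with GJA1 then lower, and 2 between the OVOL lines. A fold of 4 gave 0 in the OVOL1 line, 1 in the OVOL2 line and 1 in PC3-Epi.

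For the listed family genes, no floor gave 6, 8 and 11 calls for the OVOL1 line, the OVOL2 line and PC3-Epi and 4 between the OVOL lines, and a floor of 5 FPKM gave 0, 2 and 2. A fold of 4 gave 1 in the OVOL1 line and 2 in the OVOL2 line. A pseudocount of 1 FPKM gave 1 for the OVOL1 line, and a fold of 1.5 gave 3 between the OVOL lines. For the partners, the OVOL1 line had 1 call at a floor of 5 FPKM and 1 at a fold of 4. A fold of 1.5 gave 5 in the OVOL2 line, 8 in PC3-Epi and 3 between the OVOL lines, and a fold of 4 gave 2 in PC3-Epi and 0 between the OVOL lines. For the ATP genes, a floor of 5 FPKM gave 1, 0 and 3, and a fold of 1.5 gave 5 in the OVOL1 line, 6 in the OVOL2 line and 2 between the OVOL lines. No floor gave 2 in the OVOL2 line, and so did the mean PC3-EMT14 value over the 3 tables that hold this line. For the OVOL1 line, a pseudocount of 1 FPKM gave 0 and a fold of 4 gave 1.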
